A study of Mus musculus with 10 samples.

Results

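The genes described here encode proteins that build the light-sensing outer segment of photoreceptors, carry cargo into it or surround it, and H3K4me2 and H3K27me3 at their start sites were followed through late development of the mouse retina. They were chosen by name as 10 genes, namely Prph2, Rom1, Prom1, Abca4, Rp1, Tulp1, Aipl1, Rpgrip1, Impg1 and Impg2, out of 20044 gene symbols in the deposited table, and they hold 18 of its 25152 entries. The choice by name uses no measured value, but it was made with earlier results of these data known. Pools of at least 20 retinas were taken at 4 stages (E17.5, PN1, PN7, PN15), and their chromatin was precipitated with antibodies to H3K4me2 or H3K27me3, with 1 library for each mark and stage. A value is the normalized occupancy of a gene, that is the reads within 2.5 kb of its transcription start site (TSS) which the authors scaled to library size and gave as a rounded whole number. The study's methods name C57BL/6j and rd1/rd1 mice and its text calls the 4 stages wild type, whereas the strain label of each library is the Pde6b (rd1/rd1) mutant, which loses its rods, and the labels write E17 where the protocol has E17.5. H3K4me2 of rd1/rd1 retinas at PN30 and the anti-GFP control at PN56 were not analysed here. With 1 library per condition no replicate error exists, so folds are given with no test, and they compare libraries.

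The outer segment is a modified cilium filled with stacked membrane discs, which are renewed throughout life and joined to the cell body by a narrow connecting cilium. Peripherin 2 and Rom1 hold the curved disc rims, prominin 1 acts where new discs form, and proteins made in the inner segment reach the discs only through the cilium. Mutations in these genes are known causes of retinal degeneration in humans. H3K4me2 is found around active and poised promoters, and H3K27me3 is deposited by Polycomb complexes at repressed genes.

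The 500 bp around the start sites of all 10 genes were poor in CpG dinucleotides. In that window, centred on the TSS (mm9), the ratio of observed to expected CpG ran from 0.196 at Rpgrip1 to 0.549 at Abca4, all under a limit of 0.6 that 46.2% of the 19346 symbols with a matched TSS were also under. Promoter sequence, 250 bases before the RefSeq start (sequence table of build GRCm38.p6, each found at 1 place in mm9), was matched for 9 of the 10 genes. In these shorter stretches the ratio was above 0.6 at Rom1 (0.610) and Abca4 (0.649) and from 0.160 to 0.413 at the others, beside a median of 0.374 over all promoters. The following 6 are shown because the results turn on them, 3 for holding the Crx-type letters TAATCC, Tulp1 for its H3K27me3, Rom1 for the gene that starts beside it and Impg1 for the largest H3K4me2 difference. Capitals mark a match to TAATCC, to TGCTGA (letters found in response elements of the rod factor Nrl) or to a TATAAA box. Each was searched on both strands, and a match on the opposite strand appears as the reverse complement.

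Rpgrip1: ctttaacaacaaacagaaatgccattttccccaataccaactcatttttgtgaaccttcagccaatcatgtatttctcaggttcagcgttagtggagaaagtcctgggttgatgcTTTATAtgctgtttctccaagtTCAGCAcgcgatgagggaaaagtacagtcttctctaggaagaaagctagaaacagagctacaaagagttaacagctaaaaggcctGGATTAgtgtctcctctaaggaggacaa
Aipl1: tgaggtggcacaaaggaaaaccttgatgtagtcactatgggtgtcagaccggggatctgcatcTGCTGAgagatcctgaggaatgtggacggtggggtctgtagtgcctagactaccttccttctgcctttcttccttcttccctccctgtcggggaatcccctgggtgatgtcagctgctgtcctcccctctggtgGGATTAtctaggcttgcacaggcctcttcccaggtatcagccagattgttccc
Abca4: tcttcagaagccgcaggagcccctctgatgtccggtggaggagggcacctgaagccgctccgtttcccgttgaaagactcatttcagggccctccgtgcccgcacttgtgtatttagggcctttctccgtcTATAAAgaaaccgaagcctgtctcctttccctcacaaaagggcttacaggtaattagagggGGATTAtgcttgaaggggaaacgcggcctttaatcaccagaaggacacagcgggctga
Tulp1: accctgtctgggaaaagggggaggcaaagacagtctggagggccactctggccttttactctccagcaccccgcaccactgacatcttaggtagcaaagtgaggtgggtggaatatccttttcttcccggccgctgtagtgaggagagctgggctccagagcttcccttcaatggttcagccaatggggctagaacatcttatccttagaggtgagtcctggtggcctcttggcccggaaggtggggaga
Rom1: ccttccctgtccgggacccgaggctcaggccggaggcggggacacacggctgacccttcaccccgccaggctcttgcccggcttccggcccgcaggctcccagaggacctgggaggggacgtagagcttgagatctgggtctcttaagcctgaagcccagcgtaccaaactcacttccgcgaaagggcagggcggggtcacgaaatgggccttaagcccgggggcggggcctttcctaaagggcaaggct
Impg1: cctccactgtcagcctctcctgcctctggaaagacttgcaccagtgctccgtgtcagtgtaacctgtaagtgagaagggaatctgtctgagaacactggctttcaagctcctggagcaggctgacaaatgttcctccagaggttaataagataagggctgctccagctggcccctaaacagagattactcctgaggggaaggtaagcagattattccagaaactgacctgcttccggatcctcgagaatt

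In mm9 these are chr14:52730328-52730577 (plus strand) for Rpgrip1, chr11:71851012-71851261 (minus) for Aipl1, chr3:121747128-121747377 (plus) for Abca4, chr17:28502162-28502411 (minus) for Tulp1, chr19:9003847-9004096 (minus) for Rom1 and chr9:80359046-80359295 (minus) for Impg1. TAATCC was found before Rpgrip1, Aipl1 and Abca4, 3 of 10 promoters (Prom1 has an entry for each of 2 starts), against 6.25% of all 32851 promoters of the same length. TGCTGA was found before Rpgrip1 and Aipl1, against 16.1% of all promoters, and TATAAA before Rpgrip1 and Abca4, against 12.4%. The positions counted back from the start were -28 for TAATCC at Rpgrip1, -53 at Aipl1 and -58 at Abca4, and in none did the motifs overlap. A match describes letters in this window and was not tested for binding.

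All 10 genes had more H3K4me2 at PN15 than at any earlier stage. The median over the 10 was 17 at E17.5, 14.5 a few days later at PN1 and 96.5 by PN15, beside 41, 27 and 42 over all symbols. At E17.5 8 of the 10 lay below the median of all symbols and at PN15 none did. On the scale used for changes, log2 of (value + 1) less the median change of all symbols, each gene was at least 2-fold higher at PN15 (10 of 10, against 5.17% of all symbols), with a median of 1.86 and a range from 1.04 at Prom1 to 4.69 at Impg1. Prom1 was at the limit, and with symbols of low mean left out its value was 0.99. The libraries hold all retinal cells, so more cells that carry a mark and more of the mark in each cell cannot be told apart.

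**Figure D1:**
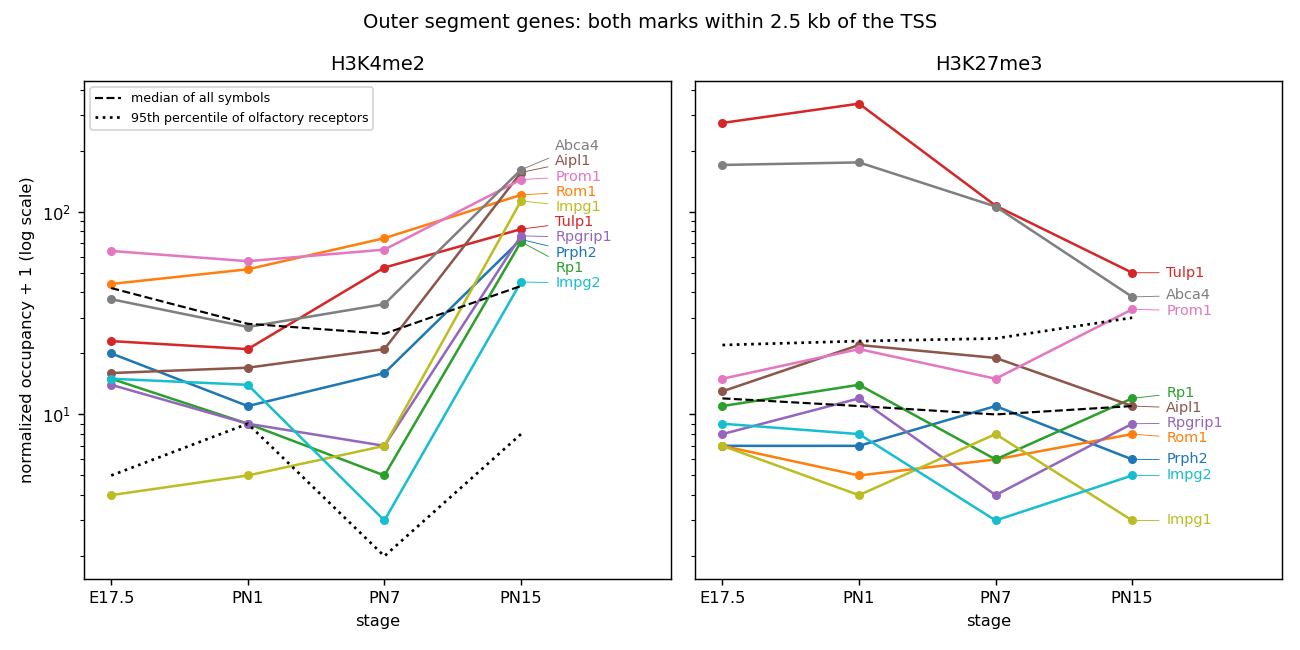
Normalized occupancy + 1 (log scale) of H3K4me2 (left) and H3K27me3 (right) within 2.5 kb of the TSS at 4 stages, 1 library each; each coloured line is a gene, the dashed line is the median of all symbols and the dotted line the 95th percentile of olfactory receptor genes. All 10 genes are highest in H3K4me2 at PN15, between 44 and 160, and Tulp1 and Abca4 stand apart in H3K27me3.

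Among the disc rim and disc membrane genes, Prph2 and Rom1, which encode partner tetraspanins, both gained H3K4me2, and Rom1 had more of it from the start. At Prph2 (chr17:47047408-47061882, GENCODE annotation of mm9 as for all genes here) the 4 stages in order of age gave H3K4me2 of 19, 10, 15 and 72. The first 3 libraries were all under 20 and the last was 3.33-fold above E17.5 after centring, a log2 change of 1.74. At Rom1 (chr19:9001872-9003846) they gave 43, 51, 73 and 120, each above the one before. From E17.5 to PN7 the centred log2 change was 1.69 at Rom1 and 0.62 at Prph2, and from PN1 to PN7 it was 1.01 and 1.04. H3K27me3 was low at both genes, between 5 and 10 at Prph2 and between 4 and 7 at Rom1.

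The start of Eml3 lies 338 bp upstream of Rom1 on the opposite strand in mm9, and the 5 kb windows of the genes shared 93.2% of their length. Eml3 encodes a microtubule-associated protein. Its H3K4me2 was 43, 50, 65 and 112 over the 4 stages and its H3K27me3 was 6, 4, 4 and 7. Of all symbols outside the 10, Eml3 was nearest to Rom1 over the 8 libraries, at a Euclidean distance of 0.33 on log2 (value + 1). What belongs to Rom1 and what to Eml3 cannot be told apart from these values.

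Prom1 (chr5:44384864-44493271) encodes prominin 1, a membrane protein of the newly forming discs. It had 8 entries that held only 2 sets of values. In 2 entries, which represent the gene by their larger sum, H3K4me2 was 63, 56 and 64 up to PN7 and then 143. In the other 6 entries it was 21, 11, 16 and 105, lower at every stage and with a larger centred log2 change from E17.5 to PN15, 2.14 against 1.04. The mm9 annotation places the outermost coding starts of Prom1 7264 bp apart, so that their windows do not overlap. The table does not pair an entry with a start, and which start gained more could not be settled. Gm16401 starts 1590 bp from Prom1 on the opposite strand, within its window, and was not analysed here.

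Abca4 (chr3:121747361-121882979), the disc rim transporter that clears retinoid byproducts, had the highest H3K4me2 of the 10 at PN15. Its values were 36, 26, 34 and 160 in order of age, and the last stood at percentile 99.1 of all symbols. From PN7 to PN15 it was 2.30-fold higher after centring. Unlike Prph2 and Rom1 it carried H3K27me3, described with Tulp1 below.

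Rp1 (chr1:4334224-4350473), a microtubule-associated protein of the axoneme that runs along the discs, had H3K4me2 of 14, 8 and 4 in the first 3 libraries and 70 in that of PN15. Rpgrip1 (chr14:52730578-52780982), which anchors the Rpgr protein in the connecting cilium, had 13, 8, 6 and 75. These were the closest profiles among the 10 genes, at a distance of 1.01. Both were lowest at PN7 and highest at PN15, with centred log2 changes of 2.83 at Rp1 and 2.44 at Rpgrip1 in that interval. The H3K4me2 library of PN7 had 19.4% of entries at 0, against 0.362% to 2.52% in the other H3K4me2 libraries, and its part in the low PN7 values was not tested. From E17.5 to PN15, which leaves that library out, the centred log2 changes were 2.11 and 2.31.

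Aipl1 (chr11:71841465-71851011), a co-chaperone that rod phosphodiesterase needs for folding, had H3K4me2 of 15, 16 and 20 up to PN7 and of 155 at the last stage. From E17.5 to PN7 the centred log2 change was 1.33. The change between the first and last stages, 3.15, was exceeded by 22 of the 20044 symbols. Fam64a starts 4543 bp upstream on the opposite strand, its window shared 9.16% with that of Aipl1, and its H3K4me2 was 74, 58, 65 and 74, with no such increase.

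Tulp1 (chr17:28488460-28502127), a tubby-like protein needed for transport of proteins to the outer segment, had its largest H3K4me2 step from PN1 to PN7 on the centred scale. It had 22 and 20 before and at birth, 52 at PN7 and 81 at PN15, with 50.8% of the gain in deposited value present by PN7, against 39.0% at Rom1 and from -40% at Impg2 to 3.57% at Aipl1 for the other genes. The median of all symbols was lowest in the PN7 library, at 24, and the centred scale gave another picture. There the change from E17.5 to PN7 was 2.14 at Tulp1 and 1.69 at Rom1, above their changes to PN15 of 1.70 and 1.33, and it was 0.96 of 1.04 at the 2 entries that represent Prom1 but 0.57 of 2.14 at its other 6. At Prph2, Aipl1, Abca4 and Impg1 it came to between 35.6% and 43.2% of the log2 change to PN15, and at Rp1, Rpgrip1 and Impg2 it was below 0.

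Impg1 and Impg2 encode proteoglycans of the interphotoreceptor matrix, the material around the outer segments. At Impg1 (chr9:80161137-80359045) the libraries gave 3, 4, 6 and then 112. The centred log2 change over the whole span, 4.69, was exceeded by 1 of the 20044 symbols. It was 3.75 with a pseudocount of 5, as the early values were near those of silent genes. At Impg2 (chr16:56204426-56273869) H3K4me2 was 14, 13, 2 and 44, the lowest of the 10 genes at PN15 and at percentile 50.9 of all symbols. Impg1 thus had the largest H3K4me2 change of the 10 genes and Impg2 one of the 3 smallest.

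By interval, H3K4me2 was called higher at 0 of the 10 genes from E17.5 to PN1 (background 13.7% of all symbols), at 3 from PN1 to PN7 (13.7%) and at 7 from PN7 to PN15 (15.9%). The 3 of PN1 to PN7 were Tulp1, with a centred log2 change of 1.84, Prph2 with 1.04 and Rom1 with 1.01. The last 2 were close to the 2-fold limit, and without centring only Tulp1 passed it. The 7 of PN7 to PN15 were Impg1, Impg2, Rp1, Rpgrip1, Aipl1, Abca4 and Prph2, in falling order from 3.01 to 1.19. Impg1, Impg2, Rp1 and Rpgrip1 started from small values of 6, 2, 4 and 6 at PN7, in the library with 19.4% of entries at 0. Prom1 was called in neither interval by the 2 entries that represent it, whereas its other 6 entries passed the limit in both, barely from PN1 to PN7 and with 1.64 from PN7 to PN15. Lower calls were 0, 1 (Impg2 from PN1 to PN7, -1.72) and 0 in turn, against 1.11%, 26.6% and 17.1% of all symbols. The median of all symbols itself moved by -0.42, -0.50 and 1 on the log2 scale in the 3 intervals, and the changes given are relative to it.

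**Figure D2:**
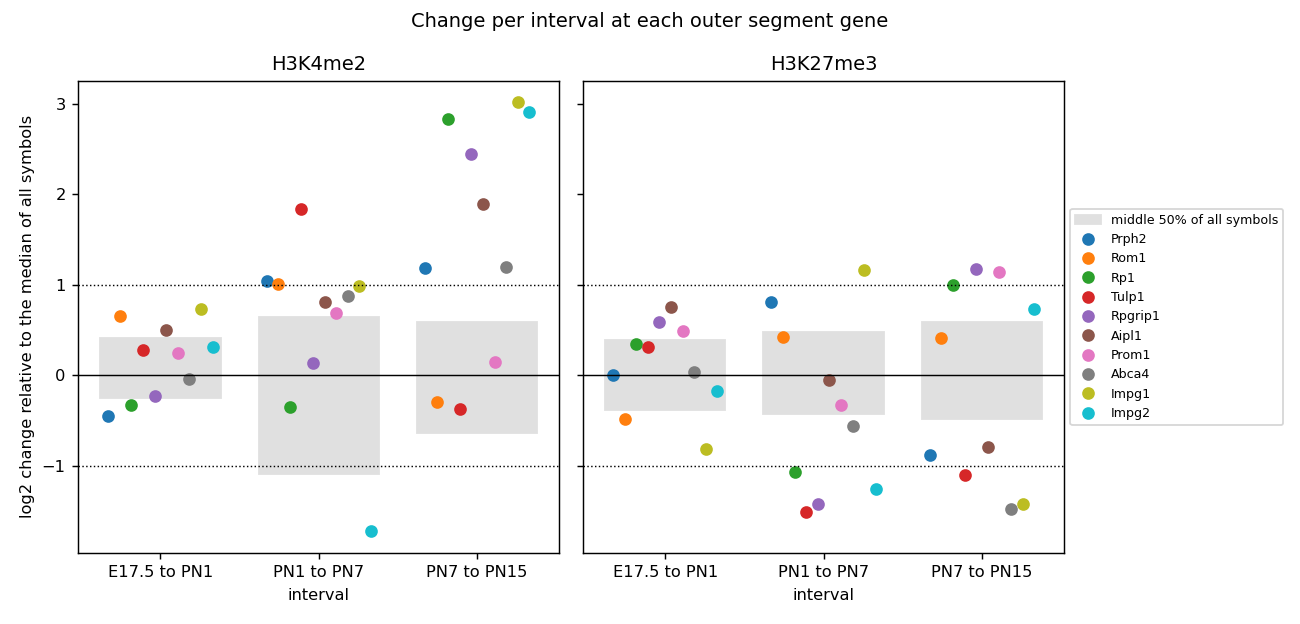
Log2 change of (value + 1) relative to the median of all symbols in each interval, for H3K4me2 (left) and H3K27me3 (right). Points are the 10 genes, grey boxes the middle 50% of all symbols, dotted lines the 2-fold limits. H3K4me2 points reach up to 3.01 from PN7 to PN15, where Rom1, Tulp1 and Prom1 stay between -0.37 and 0.15 (the other 6 Prom1 entries, not plotted, are at 1.64, and Rom1 and Tulp1 turn to 0.71 and 0.63 without centring).

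H3K27me3 divided the genes otherwise. The 1047 olfactory receptor symbols, which are silent in retina, gave a reference in each library, and their 95th percentile of H3K27me3 was 21, 22, 22.7 and 29 in order of age. Tulp1 and Abca4 were above it at all 4 stages, 2 of 10 genes at each of the first 3, against 24.3%, 24.8% and 24.3% of all symbols. At PN15 Prom1 was above it too, with 32, making 3 of 10 against 19.3%, but its other 6 entries were at 20, under the reference of 29, and with the mean over entries the count was 2. The other 7 genes stayed at or under 21 at every stage, and Aipl1 with 21 at PN1 was just under the reference of 22. Calls of change from E17.5 to PN1 were 0 higher and 0 lower for this mark (5.77% and 8.27% of all symbols).

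At Tulp1 the H3K27me3 libraries gave 273 and 340, then 106 and 49. The value at E17.5 was at percentile 97.0 of all symbols, and the log2 change from there to PN15 was -2.45. At Abca4 H3K27me3 was 169, 174, 105 and 37, with a log2 change of -2.16. Both genes were highest at PN1 and lowest at PN15, and relative to the median Tulp1 at PN7 had 0.351 times its PN1 value and Abca4 at PN15 had 0.359 times its PN7 value. Only 143 symbols had a lower change than Tulp1 from E17.5 to PN15 and 257 a lower one than Abca4.

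**Figure D3:**
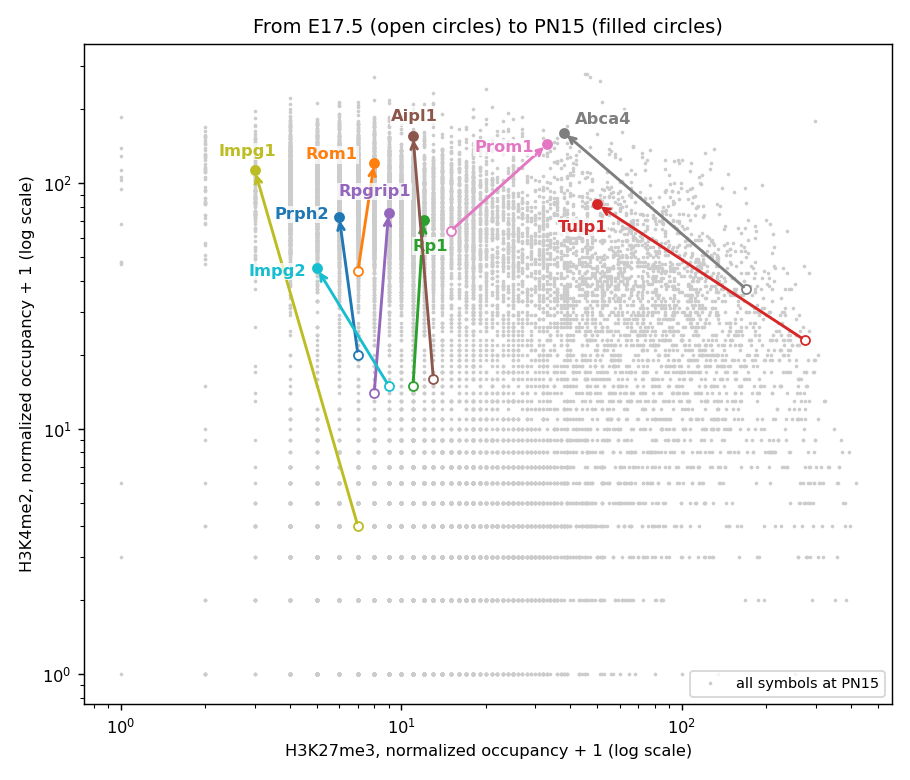
H3K4me2 against H3K27me3, normalized occupancy + 1 on log scales, with an arrow for each gene from E17.5 (open circle) to PN15 (filled circle) and all symbols at PN15 in grey. Tulp1 and Abca4 move from high H3K27me3 (273 and 169) to the upper left, Prom1 moves to the upper right, and the other 7 genes rise at H3K27me3 of 12 or less.

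Both marks were above the reference at Tulp1 and Abca4 from E17.5 to PN7, with the olfactory receptor percentile of H3K4me2 at 4, 8, 1 and 7 in order of age. H3K4me2 itself was above that level at 9 of the 10 genes at E17.5 (77.2% of all symbols), at 7 of them at PN1 (72%), and at 10 in both later libraries (72.1% and then 70.9%). The reference fell from 8 at PN1 to 1 at PN7, so the higher count at PN7 does not measure a gain of the mark. Of the genes not above it at PN1, Rp1 went from 8 to 4, Rpgrip1 from 8 to 6 and Impg1 from 4 to 6. Impg2 was counted at PN7 with a value of 2. Against the largest olfactory receptor value the count was 3 at E17.5 (62.4%) and 5 at PN7 (59.4%). The share of all symbols with both marks was 22.1% at E17.5, 20.9% at PN1 and 21% at PN7. At PN15 Tulp1, Abca4 and Prom1 had both marks, 3 of 10 against 15.2%, Prom1 only in the 2 entries that represent it. Each mark was precipitated separately from all retinal cells, so whether both marks lie in the same cells cannot be told. Against the 99th percentile of the olfactory receptors at PN15, 41.5, Abca4 with 37 was not above it either, which left Tulp1 alone (10.9% of all symbols). The log2 difference of H3K4me2 less H3K27me3 was -3.57 at E17.5 and 0.71 at PN15 for Tulp1, and -2.20 and 2.08 for Abca4. H3K4me2 alone was above the reference at 7 genes at E17.5, against 55.2% of all symbols. Impg1 had neither mark there, with H3K4me2 of 3 and H3K27me3 of 6, against 20.5% of all symbols. At PN1 Rp1, Rpgrip1 and Impg1 had neither, against 24.1%.

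From E17.5 to PN15 H3K27me3 was called lower at 3 of 10 genes, against 16.1% of all symbols, and higher at 1, against 12.2%. The lower calls were Tulp1, Abca4 and Impg1. That of Impg1 went from 6 to 2, under the reference throughout, and ended with a pseudocount of 5, at -0.65. The higher call was Prom1, from 14 to 32, a log2 change of 1.14, which was 0.96 with a pseudocount of 5. The other 6 Prom1 entries went from 6 to 20. Between PN1 and PN7 H3K27me3 was called lower at 4 genes (9.33%) and higher at 1 (8.44%), and between PN7 and PN15 lower at 3 (9.7%) and higher at 3 (15%), and apart from Tulp1, Abca4 and Prom1 these calls were at values of 13 or less.

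Set against other start sites poor in CpG, the median H3K4me2 of the genes was higher at E17.5 and more so at PN15, although Impg1 at E17.5 was not. The 8934 symbols under the CpG limit had a median H3K4me2 of 5 at E17.5 and 5 at PN15, against 17 and 96.5 for the 10 genes. The lowest of the 10 at PN15, Impg2 with 44, was reached or passed by 16.2% of those symbols. At least 2-fold higher H3K4me2 from E17.5 to PN15 was seen at 8.5% of the symbols under the limit and at 2.16% of the 10412 others. The 10 genes are included in the first class.

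**Figure D4:**
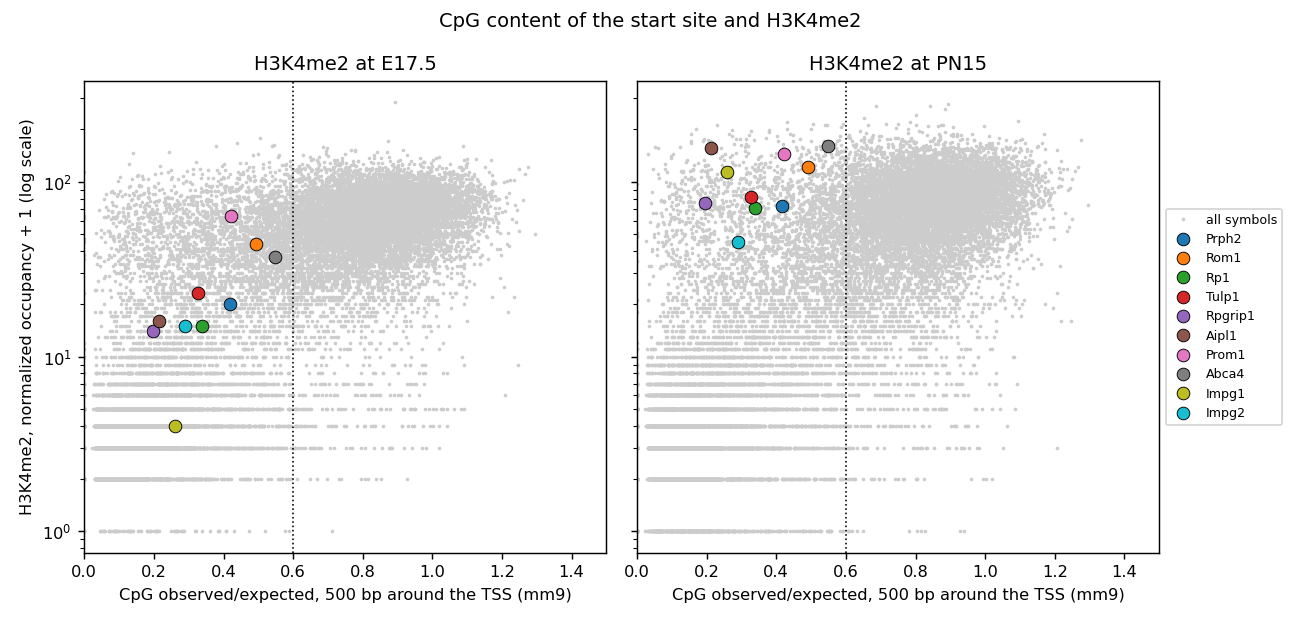
H3K4me2, normalized occupancy + 1 (log scale), against the ratio of observed to expected CpG in the 500 bp around the TSS at E17.5 (left) and PN15 (right); grey points are all symbols with a matched TSS, coloured points the 10 genes and the dotted line the limit of 0.6. All 10 genes lie left of the line, and at PN15 they lie between 44 and 160 where most symbols of low CpG are near 5.

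Other genes of the outer segment and its cilium gave a mixed picture. Of 34 listed, 33 were in the table, and H3K4me2 from E17.5 to PN15 was higher at 17 and lower at 1 (5.17% and 12.8% of all symbols), with a median of 1.01. Cnga1 is also among the rod markers given below. The largest was Cnga1, the rod cyclic nucleotide-gated channel, which went from 6 to 126. Pcare, an actin-associated protein of disc formation (BC027072 in the table), went from 10 to 127 and Cdhr1, a cadherin at the disc base, from 21 to 138. The one lower gene, named after its value was seen, was Crb1, a polarity protein, from 88 to 25. H3K27me3 was lower at 12 of the 33 and higher at 2 (16.1% and 12.2% of all symbols), and the largest decrease was at Rtbdn, a riboflavin-binding protein, from 254 to 23.

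Relatives of the 10 genes by sequence gave 2 of 17 higher and 2 lower in H3K4me2 (5.17% and 12.8% of all symbols), with a median of 0.23. In H3K27me3 3 of the 17 were higher and 6 lower (12.2% and 16.1%). Tub, the founder of the tubby family, went from 27 to 103 in H3K4me2 and from 170 to 20 in H3K27me3, beside Tulp1 at 22 to 81 and 273 to 49. Tulp3, another family member, had H3K4me2 of 73 and 56 and went from 4 to 29 in H3K27me3, the other way from Tulp1 and Tub. Tulp2 had H3K4me2 of 6 and 8. Prom2, the epithelial relative of Prom1, had H3K4me2 of 10 and 5 and H3K27me3 of 417 and 139. Rp1l1, the photoreceptor relative of Rp1, went from 17 to 94 in H3K4me2, and Dcx, of the same doublecortin family, from 10 to 4. Rp1l1 is also counted among the higher genes of the outer segment list above.

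For each gene, the symbols of nearest profile over the 8 libraries, the 10 genes themselves left out, were named by their distance. Fam161a, a ciliary protein of photoreceptors, was among the 3 nearest to both Rpgrip1 and Impg2, and Fscn2, a photoreceptor actin-bundling protein, was among those of Rp1 and Rpgrip1. Nearest to Rp1 outside the 10 was Gngt1, a subunit of rod transducin, with H3K4me2 of 9, 12, 3 and 78. The 3 nearest to Aipl1 were Lrit2, Slco4a1 and Pde6b, and those of Abca4 were Tmem108, Grtp1 and Sncb. Those of Prph2 were 9130401M01Rik, Ccdc150 and Zfp2. Those of Tulp1 were Kcnc1, Drd4 and C77080, and those of Prom1 were Dcc, E2f2 and Vac14. Nearest to Impg1 was Rabgef1, at a distance of 2.01, and nearest to Impg2 was Ktn1, at 1.15.

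Markers of retinal cell types moved in the same libraries. All 6 rod markers were called higher in H3K4me2 from E17.5 to PN15, and their summed value was 82, 90, 120 and 602 over the 4 stages. Among 5 markers of cones, which also have outer segments, 1 was higher and 1 lower, with sums of 59, 34, 8 and 52, and Opn1mw and Arr3 were at 0 at PN7. Both cone calls rest on small values. Arr3 went from 2 to 7, with the olfactory receptor reference at 7 at PN15, and Opn1sw went from 11 to 2. The PN7 sum comes from the library with 19.4% of entries at 0. None of 9 inner retinal, 4 glial and 5 progenitor markers was higher, 5, 1 and 2 being lower, beside 5.17% higher and 12.8% lower of all symbols, so that with lists of this size 0 higher does not set them apart. Of 9 markers of pigment epithelium, a tissue beside the outer segments, 0 were higher and 2 lower, near the same shares, and Rpe65 was at 1, 5, 0 and 2. The part of cell composition in the H3K4me2 increase of the 10 genes was not tested. In H3K27me3 over the same span, against 12.2% higher and 16.1% lower of all symbols, 0 of 6 rod markers were higher and 2 lower, 0 of 9 inner retinal markers were higher and 3 lower, 3 of 5 cone and 4 of 5 progenitor markers were higher and none lower, 1 of 4 glial markers was higher and 1 lower, and 2 of 9 pigment epithelium markers were higher and 1 lower. The summed H3K27me3 of the inner retinal markers was 2876, 3701, 2776 and 1491 in order of age, highest at PN1 and lowest at PN15 as at Tulp1 and Abca4, and its part in their decrease was not tested. The sum over all entries was also highest at PN1 and lowest at PN15, at 854731, 980808, 790454 and 590366. All 8 housekeeping genes were within 2-fold in both marks from E17.5 to PN15. Within single intervals 1 was called lower in H3K27me3 from PN1 to PN7 (9.33% of all symbols). From PN7 to PN15 2 were called higher in that mark (15%).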

How the data were processed

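H3K4me2 and H3K27me3 were profiled by ChIP-Seq in mouse retina. The authors mapped reads with Bowtie (version 0.12.4) to mm9, excluded reads with several positions, summed reads within 2.5 kb of each RefSeq TSS and normalized them to the total mapped reads. The deposited values are scores (normalized occupancy), rounded to whole numbers by the authors, so they are not counts, no count model was used, and the depth of each library is unknown. All 8 columns were used and 2 of the 10 libraries have no column. For the antibodies, the labels and the study's methods give the catalogue numbers differently for H3K4me2 and H3K27me3. The column of H3K27me3 at PN7 carries an extra letter b.

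For the 3225 symbols with several entries, the one whose 8 values sum highest was taken. Change was log2 of (value + 1), less the median of the same over all symbols, and was called from 2-fold. No replicate exists, so no p-value is given. The named genes are the 10 genes, for each the 3 symbols of smallest Euclidean distance over the 8 libraries, called genes of the fixed lists (up to 10 for each list and mark) and genes starting within 2.5 kb. Tulp2, Tulp3, Opn1mw and Rpe65, which have no H3K4me2 call from E17.5 to PN15, and Fam64a and Crb1 were chosen after their values were seen. The genes and lists were chosen with earlier results of these data known. An item of the lists is not reported here and was left out of their counts. CpG ratios were computed from the mm9 genome and GENCODE starts (96.5% of symbols matched). The calling step was run on simulated data, with large planted changes at genes of higher starting value only. That run does not cover calls at low values or the spread between replicates. Alternatives were the pseudocount, centring, fold, filter, entry choice and olfactory receptor reference. Python 3.11.15, numpy 2.4.6, pandas 2.3.3 and matplotlib 3.10.9 were used.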

Additional observations from a re-analysis of the deposited data

How the results depend on the processing

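The 10 higher H3K4me2 calls from E17.5 to PN15 were 10 with a pseudocount of 5, without centring, at 1.5-fold and with the mean over entries, 9 with symbols of mean under 5 left out and 7 at 3-fold (1.58% to 14.3% of all symbols), and the median change ranged from 1.71 to 2.00. The 7 higher calls from PN7 to PN15 ranged from 5 at 3-fold (6.24% of all symbols) to 8 without centring (52.3%). Counts of the earlier intervals moved more. For H3K4me2 from E17.5 to PN1, 2 genes were higher at 1.5-fold (20.3%) against 0. From PN1 to PN7, against 3 higher, 1 was higher with a pseudocount of 5, without centring, at 3-fold or with the filter (2.91% to 9.18%), and 7 at 1.5-fold (27.3%), and the 1 lower call became 0 with a pseudocount of 5. For H3K27me3 from E17.5 to PN1, 2 were higher and 1 lower at 1.5-fold (16.1% and 18.1%), against 0 and 0. From PN1 to PN7, against 1 higher, there were 0 with a pseudocount of 5, at 3-fold or with the filter (2.23% to 8.12%) and 2 at 1.5-fold (19.7%), and against 4 lower, 1 with a pseudocount of 5 (4.12%) and 0 at 3-fold (4.1%). From PN7 to PN15, against 3 higher, there were 0 with a pseudocount of 5 (7.07%) or at 3-fold (6.54%), and against 3 lower, 5 at 1.5-fold (22.6%) and 0 at 3-fold (1.55%). From E17.5 to PN15 the 1 higher call became 0 with a pseudocount of 5 (5.45%) or at 3-fold (4%). With the largest olfactory receptor value as reference, 3 genes were above it in H3K4me2 at E17.5 (62.4%) against 9, 5 at PN7 (59.4%) against 10, and in H3K27me3 1 at PN1 (4.91%) against 2, 0 at PN7 (3.57%) against 2 and 0 at PN15 (5.66%) against 3. With the 99th percentile at PN15, 1 gene, Tulp1, was above it in H3K27me3 (13.8%) and 1 in both marks (10.9%), against 3 and 3. The change of Prom1 in H3K4me2 was 1.70 with the mean over entries against 1.04, and at PN15 2 genes were then above the H3K27me3 reference against 3. The causes were not tested. No change of a gene from E17.5 to PN15 turned its direction. Within single intervals, leaving out the centring turned H3K4me2 at Tulp1, Prom1 and Impg2 from E17.5 to PN1 (to -0.13, -0.17 and -0.10), at Rpgrip1 from PN1 to PN7 (to -0.36) and at Rom1 and Tulp1 from PN7 to PN15 (to 0.71 and 0.63), none of them called, and the median of the 10 from E17.5 to PN1 from 0.27 to -0.15.

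No paired analysis was possible because the labels give 1 library for each mark and stage. Leaving out a library was not possible for the same reason. Depth limits values near 0, where 1 unit moves a log2 change most, so the H3K27me3 calls at Rp1, Rpgrip1, Impg1 and Impg2 rest on small values. The H3K4me2 calls of Impg2 from PN1 to PN7 and of Impg1, Impg2, Rp1 and Rpgrip1 from PN7 to PN15 rest on small PN7 values.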
